A study of Mus musculus with 6 samples.

Results

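The Wnt genes described here are the 44 rows of the deposited expression table whose symbol names a Wnt ligand, a Frizzled receptor (Fzd), a secreted Frizzled-related protein (Sfrp), a Dickkopf (Dkk), an R-spondin (Rspo) or one of the R-spondin receptors Lgr4, Lgr5 and Lgr6. They were taken by name alone, from 24028 genes in all, but the family was chosen with earlier results of these data known. They comprise 19 ligands, 10 Frizzled receptors, 4 secreted Frizzled-related proteins, 4 Dickkopf genes, 4 R-spondins and 3 Lgr receptors. The RNA came from mouse oocytes that had finished growth and still held a germinal vesicle, the nucleus of an oocyte before meiotic maturation. The 3 dKO libraries came from females of genotype Ring1 -/-; Rnf2 f/f; Zp3-cre, and the 3 control libraries from Ring1 -/-; Rnf2 f/f females without the transgene, all about 3 months old and of mixed FVB, 129/Sv and C57BL/6J background. Both groups therefore lacked Ring1, and the comparison asks which transcripts differ when Rnf2, the other E3 ligase of Polycomb repressive complex 1 (PRC1), is removed as well. Zp3-cre acts in growing oocytes, and no library carried the transgene with intact Rnf2, so effects of Cre itself and of Rnf2 deletion cannot be told apart. Each library held 15 oocytes of 1 female, stripped of granulosa cells by pipetting, so the replicates were separate animals.

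Wnt ligands are secreted lipid-modified proteins that bind Frizzled receptors together with the co-receptors Lrp5 and Lrp6. In the canonical branch this stops the destruction complex from degrading beta-catenin, which then enters the nucleus and acts with Tcf and Lef factors. Other branches work through planar cell polarity proteins or calcium. Secreted Frizzled-related proteins bind ligands, Dkk1 blocks Lrp5 and Lrp6, and R-spondins acting through Lgr receptors raise the number of Frizzled receptors at the cell surface. In the mouse ovary Wnt4 and Rspo1 are known for their part in female development of the somatic gonad, and Rspo2 for its release by oocytes. Many Wnt genes carry Polycomb marks in cells that do not use them.

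Rnf2 stood at 14.8, 8.44 and 5.31 FPKM (fragments per kilobase of transcript, scaled to the mapped fragments of the library) in dKO oocytes, against 53.7, 46.8 and 48.2 FPKM in controls (log2 change -2.37; limma adjusted p = 0.000696). The exons of Rnf2 overlap those of the protein-coding gene Trmt1l on the other strand, so without strand its value may hold reads of both. Ring1 was at most 0.240 FPKM in any library. Of 13 oocyte markers all 13 passed the filter on low values, with sums of 5030 to 7020 FPKM in dKO and 8490 to 8760 FPKM in control libraries, led by Gdf9 and Zp3; 0 rose and 3 fell. Relative depth, read from low values and set to 1 for control replicate 1, was 0.662, 0.804 and 1.08 in dKO replicates 1 to 3 and 0.904 and 1.02 in control replicates 2 and 3, so the 2 shallowest libraries were dKO. Absolute depth is unknown, and no counting interval is given. On log2(FPKM + 1), Pearson r across the tested genes lay between 0.928 and 0.948 among dKO libraries, 0.982 and 0.983 among controls, and 0.866 and 0.917 across groups.

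Most of the 44 genes were low or silent in oocytes. In the main test 5 of the 9 tested rose in dKO oocytes and 0 fell, against 14.0% and 7.04% of all tested genes. Of these 5, 2 passed the filter through the dKO libraries alone. The mean was at least 1 FPKM for 15 of the 44 genes in dKO oocytes, against 8 in controls. The number at 1 FPKM or more was 17, 14 and 10 in dKO replicates 1 to 3, against 9, 6 and 8 in control replicates 1 to 3. Every dKO library thus held more of them than every control library, with the smallest margin in dKO replicate 3. The same order held over all genes. There 11552, 11717 and 11188 genes were at 1 FPKM or more in dKO replicates 1 to 3, against 10524, 10381 and 10251 in control replicates 1 to 3. Fzd9 and Wnt10a were listed at 0 in all 6 libraries. Of the 42 other genes, 21 (50.0%) had every dKO library above every control library, against 22.3% of all genes above 0, and 3 (7.14%) had every dKO library below every control library, against 12.5%. The 18 others overlapped between the groups.

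In the test across all genes, 9 of the 44 passed the filter of at least 1 FPKM in at least 3 libraries. Of these, Dkk3, Lgr4, Sfrp2, Fzd6 and Fzd7 rose, 0 fell, and Fzd3, Lgr6, Rspo2 and Wnt7a did not pass the threshold (limma, Benjamini-Hochberg adjusted p under 0.05). At an unadjusted p under 0.05, 2 were lower. Across all 11334 tested genes 14.0% rose and 7.04% fell. Rises made up 66.5% of these calls, but 54.4% after median-ratio scaling (1520 rose, 1276 fell) and 52.6% after quantile normalization (1191 rose, 1073 fell). Fzd6 and Sfrp2 passed the filter through the dKO libraries alone, so a difference in them was nearly built in, and the 5 of 9 is no measure of the family. With no filter, 14 of the 42 genes above 0 rose (33.3%) and 1 fell, against 9.88% and 2.68% of 20310 genes. The median log2 change was 0.23 over the 42, against 0.029 over all genes, on the log2(FPKM + 1) scale, which understates changes of low genes. The 9 further rises were Wnt4, Wnt5a, Wnt7b, Fzd1, Fzd4, Fzd10, Lgr5, Rspo1 and Rspo4, and the fall was Dkk1. In the filtered fits all 5 rises were called when any 1 library was left out. Each was positive within all 3 flow-cell lanes, which adds nothing, since in all 5 every dKO library was above every control library. With a pseudocount of 0.1 and no filter 15 rose and 1 fell, against 11.1% and 2.88% of all genes. The unfiltered count of rises was 11, 12 and 16 without dKO replicates 1 to 3, and 4, 5 and 5 without control replicates 1 to 3, so it depends on each control library. Over all genes the filtered fits called 1587 rises with all libraries and 1469, 1566 and 1869 without dKO replicates 1 to 3. Without control replicates 1 to 3 they called 1136, 1087 and 1101. The matching unfiltered counts over all genes are not given. Whether the unfiltered dependence is particular to the Wnt genes therefore cannot be told. Dkk3, Wnt7b, Fzd1 and Fzd10 were called in all 8 unfiltered fits (the fits at both pseudocounts and with each library left out). Fzd6, Fzd7 and Lgr4 lost their calls there without any 1 control (limma adjusted p up to 0.0787, 0.0695 and 0.0687), and Sfrp2 without control replicate 1 or 2 (up to 0.0514).

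**Figure D1:**
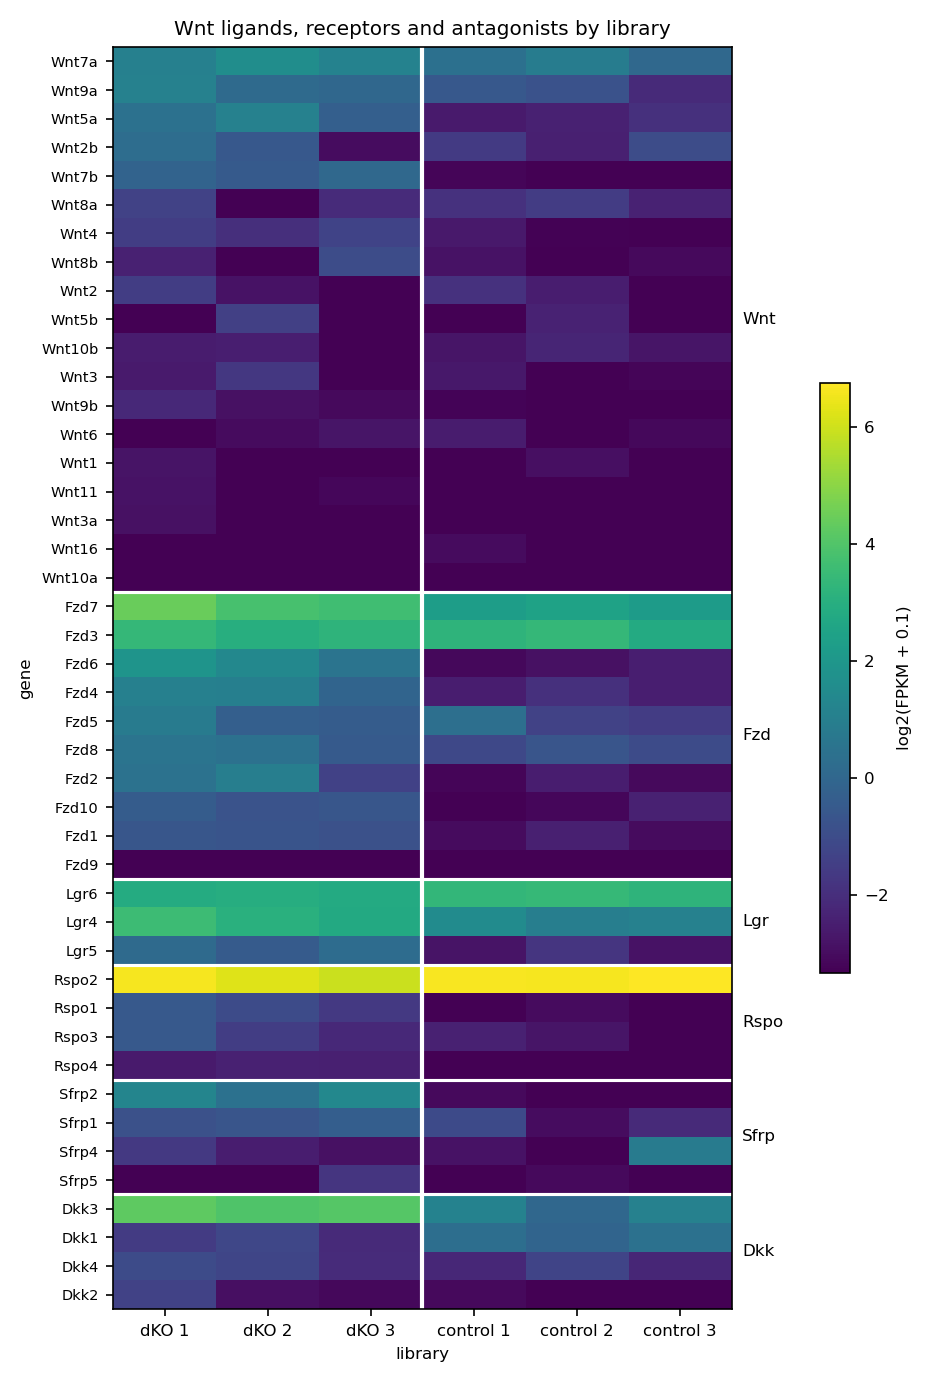
Heat map of log2(FPKM + 0.1) for the 44 Wnt genes (rows, grouped by family) in the 3 dKO and 3 control libraries (columns). Rspo2 is the brightest row in every library, most Wnt ligand rows stay dark in both groups, and Fzd6, Fzd4, Sfrp2 and Dkk3 are brighter in all 3 dKO libraries.

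Promoter sequences were looked up because PRC1 acts on many CpG-rich promoters, where the CXXC protein Kdm2b of a variant complex binds unmethylated CG. Of the 44 genes 29 were in the RefSeq promoter table (GRCm38.p6), which holds 300 bases around each transcript start. The 250 bases before the start are shown for 4 genes that rose (Fzd7, Lgr4, Sfrp2 and Fzd4), for Lgr6 and Wnt7a, which did not pass the test, and for Dkk1, which was lower. They run 5′ to 3′, with every CG in capitals.
Fzd7 (chr1:59481897-59482146, plus strand): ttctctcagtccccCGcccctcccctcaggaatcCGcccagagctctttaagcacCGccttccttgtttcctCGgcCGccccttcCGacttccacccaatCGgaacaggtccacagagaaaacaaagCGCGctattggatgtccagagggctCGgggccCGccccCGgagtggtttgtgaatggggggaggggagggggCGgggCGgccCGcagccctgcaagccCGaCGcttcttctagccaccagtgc
Lgr4 (chr2:109917397-109917646, plus strand): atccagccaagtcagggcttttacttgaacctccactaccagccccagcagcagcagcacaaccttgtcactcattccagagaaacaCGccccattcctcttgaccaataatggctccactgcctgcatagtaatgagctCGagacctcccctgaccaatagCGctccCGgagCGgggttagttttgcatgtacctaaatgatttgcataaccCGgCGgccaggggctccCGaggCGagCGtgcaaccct
Sfrp2 (chr3:83766071-83766320, plus strand): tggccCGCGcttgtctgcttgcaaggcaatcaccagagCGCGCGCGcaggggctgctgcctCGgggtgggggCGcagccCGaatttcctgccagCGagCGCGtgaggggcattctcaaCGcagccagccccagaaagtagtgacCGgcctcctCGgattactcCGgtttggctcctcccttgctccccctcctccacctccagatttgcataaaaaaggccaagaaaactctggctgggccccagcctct
Fzd4 (chr7:89404116-89404365, plus strand): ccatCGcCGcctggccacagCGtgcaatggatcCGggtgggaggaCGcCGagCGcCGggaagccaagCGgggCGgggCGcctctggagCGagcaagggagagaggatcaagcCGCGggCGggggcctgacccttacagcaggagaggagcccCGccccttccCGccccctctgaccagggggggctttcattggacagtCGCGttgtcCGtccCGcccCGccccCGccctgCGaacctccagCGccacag
Lgr6 (chr1:135105277-135105526, minus strand): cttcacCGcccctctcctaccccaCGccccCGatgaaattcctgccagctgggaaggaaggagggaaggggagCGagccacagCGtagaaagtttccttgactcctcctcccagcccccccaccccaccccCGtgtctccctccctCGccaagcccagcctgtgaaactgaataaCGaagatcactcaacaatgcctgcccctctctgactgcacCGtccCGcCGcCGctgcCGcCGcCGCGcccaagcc
Wnt7a (chr6:91411354-91411603, minus strand): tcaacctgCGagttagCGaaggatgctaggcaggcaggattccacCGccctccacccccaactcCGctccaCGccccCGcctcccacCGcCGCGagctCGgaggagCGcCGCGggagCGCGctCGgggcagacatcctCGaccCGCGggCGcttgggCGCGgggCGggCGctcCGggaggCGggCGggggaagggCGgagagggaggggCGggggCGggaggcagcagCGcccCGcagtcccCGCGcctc
Dkk1 (chr19:30549497-30549746, minus strand): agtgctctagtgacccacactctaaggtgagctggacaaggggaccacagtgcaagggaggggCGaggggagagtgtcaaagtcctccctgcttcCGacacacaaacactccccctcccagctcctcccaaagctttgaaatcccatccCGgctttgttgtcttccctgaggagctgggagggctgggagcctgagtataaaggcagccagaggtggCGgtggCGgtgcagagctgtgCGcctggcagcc
The CG pairs are spread through the shown windows of Fzd4 and Wnt7a, are densest next to the start in Lgr6, thin out towards the start in Sfrp2, and are few in Dkk1. In the full 300 bases Fzd7 held 24 CG, Lgr4 18, Sfrp2 22 and Fzd4 32. Lgr6 held 24 and Wnt7a 42, both within the range of the genes that rose, and Dkk1 held 9. The 9 genes in the table that rose with no filter held 16 to 51 CG, with a median of 29. The 20 that did not rise held 6 to 58, with a median of 28, so the ranges overlapped almost wholly. At least 15 CG were found in 25 of the 29 windows (86.2%), against 56.7% of 14868 promoters of genes above 0 and 37.1% of all 27025. Of the 24 measured Wnt genes with at least 15 CG 9 rose, and of the 4 with fewer 0 rose. Among all measured genes the shares that rose were 11% and 8.35% in the same 2 classes. The cut of 15 was chosen after the data were seen, and these counts describe the windows only. The Tcf and Lef motifs CTTTGAA and CTTTGAT, which share their first 6 letters, were searched on both strands. They occurred in 2 of the 29 windows (6.90%), those of Dkk1 and Wnt11, against 6.96% of the 14868 promoters of genes above 0 and 8.53% of all 27025.

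**Figure D2:**
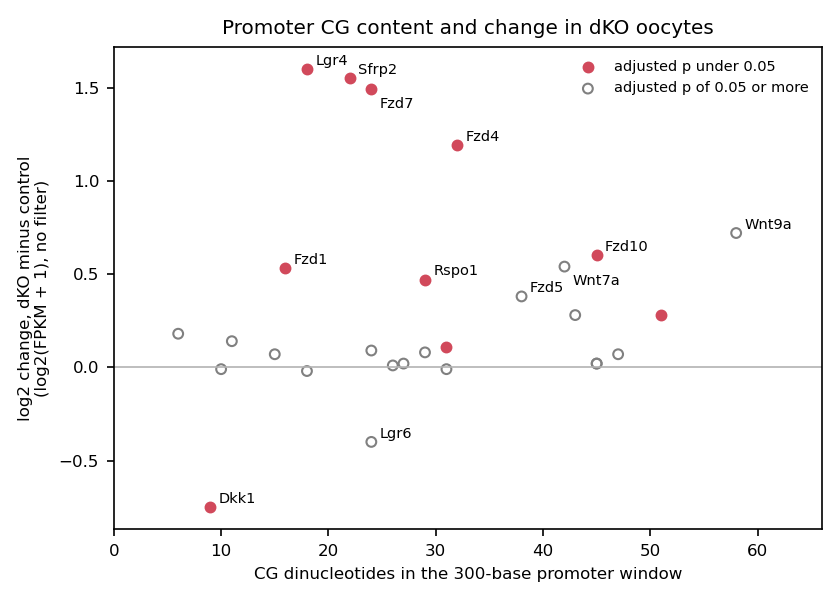
Number of CG dinucleotides in the 300-base promoter window (x axis) against the log2 change, dKO minus control, on the log2(FPKM + 1) scale with no filter (y axis), for the 28 Wnt genes with both values. Filled points passed the adjusted threshold. The genes that rose lie between 16 and 51 CG, amid others that did not pass, and Dkk1 lies lowest with 9.

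Among the ligands, Wnt7a was the highest, and it was the only one to pass the filter. Wnt7a is a ligand known from limb dorsal identity and the female reproductive tract. It stood at 1.98, 2.96 and 2.08 FPKM in dKO oocytes, against 1.22, 1.76 and 0.944 FPKM in controls. Every dKO value was above every control value, but the ranges nearly met. The log2 change of 0.54 ± 0.21 (SE) did not pass the test (limma adjusted p = 0.110). Wnt5a, a ligand of the noncanonical branch, had 1.24, 2.07 and 0.732 FPKM in dKO and 0.0638, 0.0908 and 0.161 FPKM in control libraries. The groups did not overlap, and its rise was called with no filter only (limma adjusted p = 0.0310, range 0.0133 to 0.130 over 8 unfiltered fits). Wnt9a stood at 2.02, 1.01 and 0.934 FPKM in dKO oocytes, against 0.578, 0.480 and 0.132 FPKM in controls, without overlap and without a call (limma adjusted p = 0.104 with no filter).

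Wnt7b, the close relative of Wnt7a, had 0.814, 0.618 and 0.946 FPKM in dKO libraries, against 0.0101, 0 and 0 FPKM in controls. It was called in all 8 unfiltered fits (limma adjusted p 0.00192 to 0.0349). Wnt4, whose loss in mice masculinizes the female gonad, was low throughout, at 0.252, 0.157 and 0.311 FPKM in dKO and 0.0596, 0.00339 and 0.000968 FPKM in control libraries. Its rise passed 4 of the 8 unfiltered fits (limma adjusted p 0.0163 to 0.116). Wnt2b reached 1.10 FPKM in dKO replicate 1 but 0.0264 FPKM in dKO replicate 3, below all controls, so its groups overlapped. Summed over the 19 ligands, the level was 8.43, 8.06 and 5.65 FPKM in dKO oocytes, against 2.75, 2.97 and 1.84 FPKM in controls. Wnt7a made up 23.5% to 36.8% of that sum in dKO libraries and 44.5% to 59.3% in control libraries, so several ligands shared the higher dKO sum.

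The other ligands stayed near the floor. Of all 19 ligands, 12 were under 0.1 FPKM in every control library, Wnt4 and Wnt7b among them. The highest library held 0.402 FPKM for Wnt8b, 0.296 FPKM for Wnt8a, 0.271 FPKM for Wnt5b, 0.255 FPKM for Wnt2, 0.206 FPKM for Wnt3 and 0.124 FPKM for Wnt9b. It held 0.106 FPKM for Wnt10b, 0.0690 FPKM for Wnt6, 0.0449 FPKM for Wnt1, 0.0402 FPKM for Wnt11, 0.0382 FPKM for Wnt3a and 0.0220 FPKM for Wnt16. Of the 12 ligands whose highest library is given here, only Wnt9b had every dKO library above every control library. With no filter limma called none of these listed ligands, with adjusted p of 0.250 or more. By RefSeq, 8 of the 19 ligands lie as 4 pairs of neighbours with no other protein-coding gene between them: Wnt6 with Wnt10a, Wnt3a with Wnt9a, Wnt9b with Wnt3, and Wnt10b with Wnt1. Wnt9a was the only 1 of the 8 above 1 FPKM in any library, while its neighbour Wnt3a was above 0 in 1 library alone.

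Of the 9 Frizzled receptors above 0, 7 (77.8%) had every dKO library above every control library, as did 6 of 18 ligands (33.3%), against 22.3% of all genes above 0. A total of 7 Frizzled genes had a dKO mean of at least 1 FPKM, against 2 in controls. By library the number at 1 FPKM or more was 7, 6 and 3 in dKO, against 3, 2 and 2 in control oocytes, so dKO replicate 3 held no more than control replicate 1. Over all genes too, as given above, more genes reached 1 FPKM in every dKO library than in any control library. Fzd7, a receptor prominent in early embryos and stem cells, stood at 21.6, 14.0 and 12.5 FPKM in dKO oocytes, against 4.76, 5.49 and 4.55 FPKM in controls. The lowest dKO value was more than any control value. Its mean of 16.0 ± 4.87 FPKM was 3.25 times the control mean of 4.93 ± 0.494 FPKM (SD, n = 3 each; log2 change 1.49 ± 0.23, limma adjusted p = 0.00212).

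Fzd3, known for axon guidance and cell polarity, was the leading Frizzled in controls and did not differ detectably. It had 10.4, 7.89 and 9.31 FPKM in dKO and 9.19, 10.4 and 6.94 FPKM in control libraries. The groups overlapped fully, and the log2 change of 0.06 ± 0.21 (SE) took either sign under other settings (limma adjusted p = 0.861). Fzd3 accounted for 24.1% to 35.0% of the summed Frizzled FPKM in dKO oocytes, against 55.9% to 60.9% in controls. Fzd7 accounted for 44.9% to 49.9% in dKO oocytes, against 30.5% to 36.6% in controls. The leading Frizzled was Fzd7 in all 3 dKO libraries and Fzd3 in all 3 controls, while the Frizzled sum was 43.2, 31.2 and 26.6 FPKM in dKO and 15.6, 17.1 and 12.4 FPKM in control libraries.

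Fzd6, which acts in planar polarity of hair follicles, was close to silent in controls. It had 3.65, 2.53 and 1.35 FPKM in dKO oocytes, against 0.0166, 0.0367 and 0.0813 FPKM in controls (log2 change 1.69 ± 0.25 SE; limma adjusted p = 0.00152). By GENCODE its exons overlap the noncoding gene Gm26704 on the other strand, and strand use in counting is not known here. Such overlaps hold for 7 of the 44 genes, also Fzd5, Rspo3, Sfrp2, Wnt5a, Wnt7b and Wnt11, and without strand their reads cannot be told apart from those of the overlapping gene. Fzd4, the receptor of Norrin in retinal vessels, had 1.98, 1.95 and 0.836 FPKM in dKO and 0.0739, 0.164 and 0.0815 FPKM in control libraries. It was called with no filter (limma adjusted p = 0.0205, range 0.00409 to 0.1 over 8 unfiltered fits). Fzd2 had 1.30, 1.86 and 0.286 FPKM in dKO oocytes, against 0.00939, 0.0728 and 0.0184 FPKM in controls, without a call at a pseudocount of 1 (limma adjusted p = 0.0861) and with one at 0.1 (0.0320).

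Of the remaining Frizzled genes, Fzd8 had 1.36, 1.25 and 0.624 FPKM in dKO and 0.358, 0.533 and 0.391 FPKM in control libraries, without overlap and without a call with no filter (limma adjusted p = 0.110). Fzd5 overlapped between the groups, at 1.72, 0.720 and 0.670 FPKM in dKO oocytes, against 1.19, 0.292 and 0.244 FPKM in controls. Fzd1 and Fzd10 reached at most 0.542 and 0.664 FPKM, but they were called in all 8 unfiltered fits. Fzd1 had 0.542, 0.507 and 0.469 FPKM in dKO oocytes, against 0.0231, 0.0853 and 0.0227 FPKM in controls (limma adjusted p = 0.00270 with no filter). Fzd10 had 0.664, 0.502 and 0.544 FPKM in dKO and 0, 0.0128 and 0.0906 FPKM in control libraries (limma adjusted p = 0.00425 with no filter). The dKO values of both were close together and far above their own control values.

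**Figure D3:**
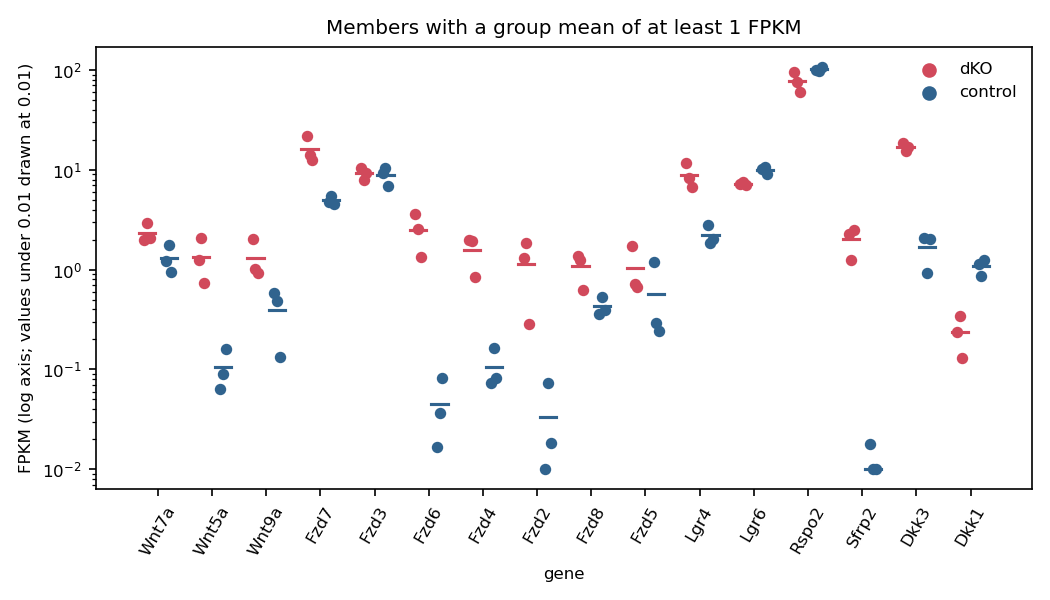
FPKM on a log axis for the 16 Wnt genes with a mean of at least 1 FPKM in either group; points are libraries, bars are group means, dKO in red and control in blue, and values under 0.01 are drawn at 0.01. Dkk3, Fzd7, Lgr4, Fzd6 and Sfrp2 lie higher in dKO oocytes without overlap, Fzd3 overlaps, and Dkk1, Rspo2 and Lgr6 lie lower.

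Rspo2 was the most abundant of the 44 genes in every library. Rspo2 stood at 96.2, 75.2 and 60.4 FPKM in dKO oocytes, against 101, 97.9 and 107 FPKM in controls. The dKO values were all lower but spread widely, with replicate 1 close to the controls. The means were 77.3 ± 18.0 and 102 ± 4.49 FPKM in dKO and control oocytes (SD, n = 3 each), and the log2 change of -0.42 ± 0.18 (SE) did not pass the test (limma adjusted p = 0.141). Without dKO replicate 1 it was -0.59, which passed (adjusted p = 0.0341).

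The other R-spondins were low in dKO oocytes and close to 0 in controls. Rspo1 had 0.597, 0.392 and 0.219 FPKM in dKO and 0, 0.0218 and 0 FPKM in control libraries, and passed in 4 of the 8 unfiltered fits (limma adjusted p 0.0103 to 0.131). Rspo4 had 0.0673, 0.0922 and 0.0822 FPKM in dKO oocytes, a very low level, and was listed at 0 in every control (limma adjusted p = 0.0212 with no filter, range 0.00960 to 0.0794). Rspo3 reached 0.599 FPKM in dKO replicate 1 and was not called. All 3 had every dKO library above every control library.

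The Lgr receptors, which bind R-spondins, moved unequally. Lgr4, the most widely expressed of them, had 11.7, 8.37 and 6.80 FPKM in dKO oocytes, against 2.80, 1.86 and 2.04 FPKM in controls. Its mean was 4.01 times that of controls, with no overlap (log2 change 1.60 ± 0.24 SE; limma adjusted p = 0.00187). Lgr6, a marker of skin stem cells, had 7.17, 7.64 and 7.01 FPKM in dKO and 10.1, 10.6 and 9.13 FPKM in control libraries. The groups did not overlap, but the log2 change of -0.40 ± 0.17 (SE) did not pass the test (limma adjusted p = 0.133). Lgr5, a stem cell marker of the intestine and of the ovarian surface, had 1.01, 0.648 and 1.07 FPKM in dKO oocytes, against 0.0428, 0.190 and 0.0420 FPKM in controls (limma adjusted p = 0.0112 with no filter, range 0.0102 to 0.0704). Lgr6 held 36.0% to 47.1% of the summed Lgr FPKM in dKO oocytes, against 78.1% to 83.8% in controls. In dKO oocytes Lgr4 was higher than Lgr6 in replicates 1 and 2 but not in replicate 3.

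**Figure D4:**
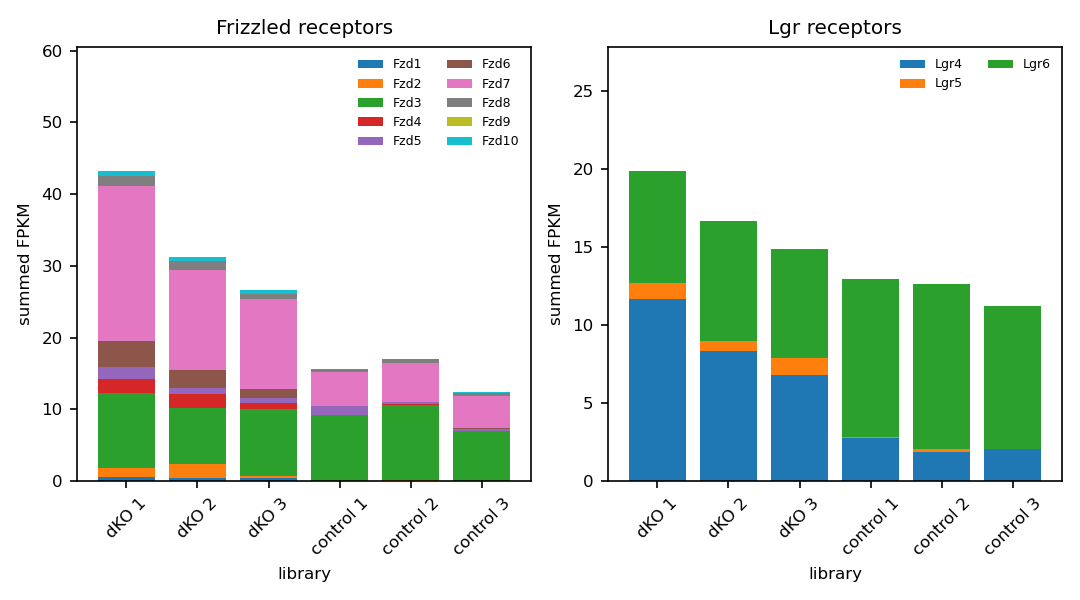
Stacked FPKM of the 10 Frizzled genes (left) and the 3 Lgr genes (right) in each library, dKO left of control. Fzd7 forms the largest Frizzled block in all 3 dKO libraries and Fzd3 in all 3 controls, while Lgr6 forms 36.0% to 47.1% of the Lgr bar in dKO oocytes, against 78.1% to 83.8% in controls.

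Of the 8 Sfrp and Dkk genes, Dkk3 and Sfrp2 were tested and rose, and Dkk1 was called lower with no filter. Dkk3, a divergent Dickkopf that differs from Dkk1 in not blocking Lrp6, had the largest log2 change of the 9 tested genes at pseudocounts of 1 and 0.5. At a pseudocount of 0.1 those of Sfrp2 (4.26) and Fzd6 (4.09) were larger than that of Dkk3 (3.35). Dkk3 stood at 18.7, 15.4 and 16.9 FPKM in dKO oocytes, against 2.09, 0.915 and 2.02 FPKM in controls. The dKO values were tight and far from the controls, with a mean of 17.0 ± 1.66 FPKM that was 10.1 times the control mean of 1.68 ± 0.660 FPKM (SD, n = 3 each; log2 change 2.78 ± 0.24, limma adjusted p = 9.22e-05). Dkk1, the classical Lrp5 and Lrp6 blocker, had 0.239, 0.341 and 0.131 FPKM in dKO oocytes, against 1.14, 0.860 and 1.26 FPKM in controls. It was just below the filter, and its fall without overlap was called with no filter (limma adjusted p = 0.0148), but not there without control replicate 1 (0.0684) or 3 (0.0590). Dkk4 and Dkk2 reached 0.394 and 0.294 FPKM at most and overlapped between the groups.

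Sfrp2, a Frizzled-related protein known from mesenchyme, had 2.27, 1.24 and 2.51 FPKM in dKO oocytes, against 0.0179, 0 and 0 FPKM in controls (log2 change 1.55 ± 0.20 SE; limma adjusted p = 0.000804). Its exons overlap the antisense gene Gm26771, from which its reads may not be told apart. Sfrp1 had 0.467, 0.537 and 0.713 FPKM in dKO and 0.378, 0.0256 and 0.129 FPKM in control libraries, without overlap and without a call (limma adjusted p = 0.0873 with no filter). Sfrp4 had 0.219, 0.0771 and 0.0382 FPKM in dKO and 0.0414, 0 and 1.72 FPKM in control libraries, and Sfrp5 reached 0.193 FPKM in dKO replicate 3. Neither differed between the groups beyond this spread.

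Within the dKO group the libraries did not rank evenly. Of the 21 genes with every dKO library above every control library, 12 were highest in dKO replicate 1, 4 in replicate 2 and 5 in replicate 3, and 12 were lowest in replicate 3. The Rnf2 value was highest in replicate 1 and lowest in replicate 3, and the relative depth was lowest in replicate 1. The part of depth, of the Rnf2 level and of the library itself in this order was not tested. The index used in sequencing was shared by the dKO libraries and differed from that of the controls, so its effect and that of genotype cannot be told apart.

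Markers of ovarian somatic cells were also measured, since several of these Wnt genes are used by such cells. Of 14 granulosa and cumulus markers 6 were tested, 3 rose (Nr5a2, Has2 and Fshr) and 0 fell, and the list summed to 47.5 to 49.1 FPKM in dKO and 26.1 to 32.6 FPKM in control libraries. Fshr, the follicle-stimulating hormone receptor, named like Foxl2 and the markers at 0 after its values were seen, had a dKO mean of 10.6 FPKM and a control mean of 0.158 FPKM. The defining granulosa regulator Foxl2 had 0.378, 0.586 and 0.0769 FPKM in dKO and 0.0972, 0 and 0.0817 FPKM in control libraries, with overlap. Amhr2 was at most 0.0817 FPKM, and Ptx3 was at 0 in every library. Cyp19a1 was lower in dKO oocytes without passing the threshold (limma adjusted p = 0.05). Theca and stroma markers summed to 6.16 to 10.3 FPKM in dKO and 1.16 to 1.74 FPKM in control libraries, led by Nr2f2, which rose, and Dcn. In 5 of these 10 markers (Nr2f2, Dcn, Pdgfra, Lum and Col1a1) every dKO library was above every control library, while Col1a2 and Insl3 were at 0 in all dKO libraries. The same lack of overlap held for 4 of 14 granulosa and cumulus, 1 of 5 surface epithelium and 0 of 13 oocyte markers. Over all genes above 0 the share was 22.3%. Pdgfra averaged 0.578 FPKM in dKO oocytes, against 0.0758 FPKM in controls, and Lum 0.333 FPKM in dKO oocytes, being listed at 0 in all controls. The 5 surface epithelium markers in the table summed to 12.6 to 16.6 FPKM in dKO and 5.18 to 9.23 FPKM in control libraries, nearly all of it Lrrn4, which rose; Krt19 was at 0 in every library, and Upk3b, the next highest, was lower in dKO. Endothelial and blood markers, led by Pecam1 and Tek, summed to 22.9 to 26.7 FPKM in dKO and 25.3 to 33.9 FPKM in control libraries. Of 3 tested, 0 rose and Pecam1 fell. In 3 of the 9 in the table (Kdr, Tek and Ptprc) every dKO library was above every control library. Kdr, which did not pass the filter, averaged 1.46 FPKM in dKO oocytes, against 0.424 FPKM in controls. In such pooled samples fewer cells of a type and less RNA per cell cannot be told apart, and the part of other cells in the Wnt gene values was not tested.

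The rest of the Wnt pathway was described from 8 lists of 115 other genes, all of them in the table. Of these 76 passed the filter, 21 rose (27.6%, against 14.0% of all tested genes) and 1 fell (1.32%, against 7.04%). With no filter 29 of 112 rose and 0 fell. The lists share a few genes. Exons of Cxxc4, Cxxc5, Tcf7l1 and Vangl1 overlap those of other annotated genes, so their reads may not be told apart. A gene silent in controls passes the filter only if it is high in all 3 dKO libraries, so these shares are descriptions. The counts of each list below stand against the same 14.0% and 7.04% of all tested genes. The 14.3% that rose among co-receptors and other surface receptors and the 6.67% that fell in the destruction complex were close to those shares.

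For secretion, 1 of 5 tested genes rose. It was Wls, the carrier that takes Wnt ligands to the cell surface, at 6.66, 6.85 and 3.18 FPKM in dKO oocytes, against 1.18, 1.10 and 1.56 FPKM in controls (log2 change 1.47 ± 0.27 SE; limma adjusted p = 0.00556). Among co-receptors and other surface receptors 1 of 7 rose, the Wnt7 co-receptor Reck, at 1.24, 1.13 and 1.19 FPKM in dKO and 0.228, 0.143 and 0.544 FPKM in control libraries (limma adjusted p = 0.0144). Reck lost its call after quantile normalization and without control replicate 1 or 2, with adjusted p up to 0.578. Lrp5 and Lrp6, named after their values were seen, averaged 20.7 ± 9.36 and 39.6 ± 4.79 FPKM in dKO oocytes, against 38.4 ± 3.46 and 45.3 ± 3.8 FPKM in controls (SD, n = 3), and neither passed (limma adjusted p = 0.0611 and 0.4), though Lrp5 was called lower with the replicate block (0.0168).

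Of 7 other secreted modulators tested 3 rose. Apcdd1, a membrane-bound Wnt inhibitor, had 3.54, 4.82 and 3.76 FPKM in dKO oocytes, against 0.112, 0.0960 and 0.0365 FPKM in controls (log2 change 2.21). The glypican Gpc4 had 4.29, 3.37 and 3.64 FPKM in dKO and 0.425, 0.420 and 0.268 FPKM in control libraries (1.80). The Wnt-binding inhibitor Wif1 had 2.03, 1.88 and 1.01 FPKM in dKO and 0.158, 0.175 and 0.124 FPKM in control libraries (1.17), and was not called after quantile normalization (limma adjusted p = 0.0616). All 3 were separated from the controls by several fold.

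In the destruction complex 0 of 15 tested genes rose and 1 fell. The fall was Ppp2r1a, a phosphatase scaffold, at 16.7, 29.7 and 19.4 FPKM in dKO oocytes, against 34.7, 37.4 and 38.2 FPKM in controls (log2 change -0.76; limma adjusted p = 0.0344). It lost its call with no filter and without any 1 library except dKO replicate 2 (adjusted p up to 0.124). Of Dishevelled and its regulators 4 of 12 rose: Cxxc4, Dixdc1, Cxxc5 and Nkd2. Nkd2, an inhibitor that binds Dishevelled, had 10.4, 10.1 and 13.8 FPKM in dKO and 0.384, 0.236 and 0.815 FPKM in control libraries (log2 change 3.08). Cxxc5 and Dixdc1 had log2 changes of 2.04 and 1.77.

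Of beta-catenin and its nuclear partners 6 of 15 rose. The corepressor subunit gene Tbl1x had 26.3, 23.3 and 17.8 FPKM in dKO oocytes, against 0.337, 0.305 and 0.271 FPKM in controls (log2 change 4.15 ± 0.21 SE; limma adjusted p = 1.76e-05). Tle3, a Groucho corepressor of Tcf factors, had 6.61, 7.22 and 6.57 FPKM in dKO and 0.0650, 0.00719 and 0.0127 FPKM in control libraries (2.92). Tcf7l1, often a repressor in the absence of beta-catenin, had 2.29, 2.98 and 3.65 FPKM in dKO and 0.300, 0.0675 and 0.263 FPKM in control libraries (1.71). Tcf7, named after its values were seen, was already abundant, at 68.2, 77.0 and 86.0 FPKM in dKO and 31.7, 32.2 and 32.5 FPKM in control libraries (1.23). Pygo1 and Tcf7l2 were the other rises, also named after their values were seen. Tcf7l2 had 8.75, 6.76 and 8.73 FPKM in dKO and 5.07, 4.54 and 4.66 FPKM in control libraries (0.65; limma adjusted p = 0.0433). Its call was lost with the replicate block (0.0575), under median-ratio scaling, quantile normalization or array weights, and without any 1 library except dKO replicate 2 (up to 0.162). The beta-catenin gene Ctnnb1 itself averaged 110 ± 12.7 FPKM in dKO oocytes, against 92.5 ± 10.0 FPKM in controls (SD, n = 3), and did not pass (limma adjusted p = 0.296).

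Of 10 tested genes commonly named as beta-catenin targets 4 rose and 0 fell. Msx2 and Ascl2, both developmental transcription factors, averaged 7.49 and 5.50 FPKM in dKO oocytes, against 0.134 and 0.0757 FPKM in controls (log2 changes 2.87 and 2.60). The target Tnfrsf19 also rose. Of the tested targets without a call, Nkd1, Lef1 and Rnf43 had every dKO library below every control library, and Znrf3 the reverse. These genes were named after their values were seen, and none passed. Over all genes above 0 the shares were 12.5% below and 22.3% above. Several targets that did not pass the filter also had every dKO library above every control library. With no filter 7 of 21 targets rose and 0 fell, against 9.88% and 2.68% of all genes. Nkd1 averaged 31.1 FPKM in dKO oocytes, against 47.3 FPKM in controls, and was called lower with the replicate block (limma adjusted p = 0.0377). Lef1 averaged 4.52 FPKM in dKO oocytes, against 6.92 FPKM in controls. Axin2, the target used most often as a readout of the canonical branch and named after its values were seen, had 58.5, 75.0 and 51.2 FPKM in dKO and 57.2, 69.3 and 65.1 FPKM in control libraries. Its groups overlapped, with a log2 change of -0.07 ± 0.18 and no call (SE; limma adjusted p = 0.817). Of 10 planar polarity genes tested 2 rose: Vangl2, at 2.39, 4.45 and 5.46 FPKM in dKO oocytes, against 0.0313, 0 and 0.0614 FPKM in controls, and Vangl1, at 1.98, 1.82 and 1.28 FPKM in dKO oocytes, against 0.168, 0.151 and 0.0550 FPKM in controls.

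**Figure D5:**
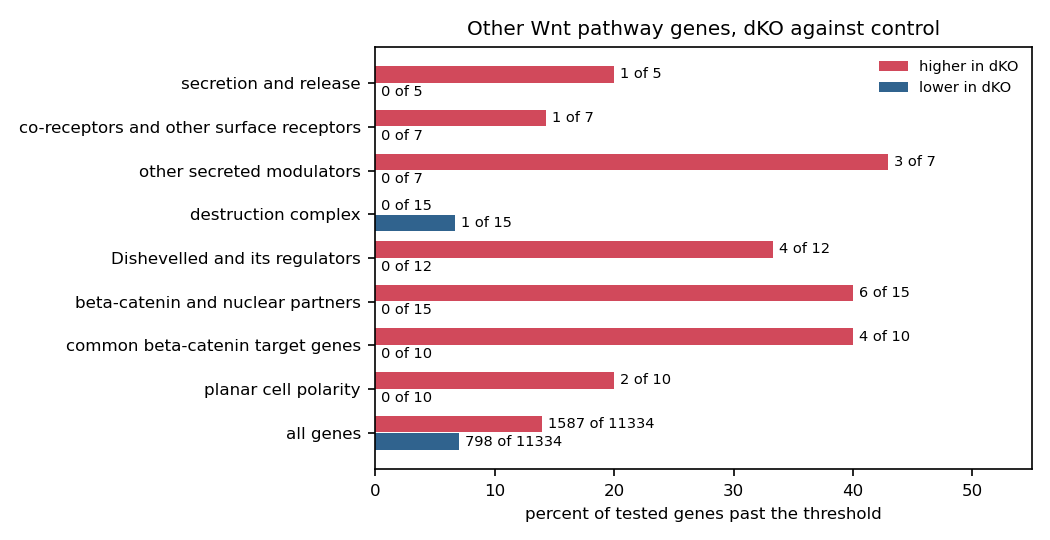
Percent of tested genes past the threshold (limma adjusted p under 0.05) in 8 lists of other Wnt pathway genes and over all genes, higher in dKO in red and lower in blue, with counts beside the bars. The shares that rose run from 0 of 15 in the destruction complex to 3 of 7 among secreted modulators, against 1587 of 11334 over all genes.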

How the data were processed

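RNA of 6 libraries, 3 dKO and 3 control, was amplified (Ovation v2) and made into TruSeq libraries, per the labels' protocols. The authors deposited 1 table of FPKM values, 1 column per library; TopHat2 2.0.11, Cufflinks 2.0.2 and build mm9 are named in the submitters' processing notes. For their roles, the annotation, strand use and scaling, the sources used here give nothing.

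Of 24525 rows 497 repeats were removed. Genes at 1 FPKM or more in at least 3 libraries were fitted as log2(FPKM + 1) with limma 3.58.1 in R 4.3.3 (lmFit, eBayes with trend, group only, two-sided, Benjamini-Hochberg adjusted over 11334 genes, threshold 0.05). The method was tested on simulated data. Libraries of 1 replicate number shared a flow-cell lane, per the labels, which pairs them; deviations from group means correlated at 0.147, 0.107 and 0.0637. Named genes were all 44 by values, those of at least 1 FPKM in either group in every library, up to 3 rises and falls of each pathway list, and the 2 highest markers of each cell type; 1 target gene that this rule names is not reported here. Relative depth is the commonest ratio among values under 0.1 FPKM. Exon overlaps came from GENCODE M21 (GRCm38). The genes and lists were chosen with earlier results of these data known. Alternatives were other pseudocounts, filters, scalings, weights, the block and each library left out.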

Additional observations from a re-analysis of the deposited data

How the results depend on the processing

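Over 132 recalculations of the log2 change of the 9 tested Wnt genes, 126 kept direction and side of the threshold. The 5 that changed sign were all Fzd3, never past the threshold: -0.012 (median-ratio scaling), -0.00024 (quantile), -0.021 (array weights), -0.024 without dKO replicate 1 and -0.086 without control replicate 3 (-0.086 to 0.175 with 1 library left out). The other was Rspo2, above. The Wnt genes that rose numbered 14 with no filter, 3 of 6 tested with the filter at 5 FPKM and 15 with no filter and a pseudocount of 0.1, a setting chosen, with the unfiltered fits that leave out a library, after seeing the data; those that fell numbered 1, 0 and 1. At 5 FPKM Dkk3 and Lgr4 passed the filter through the dKO libraries alone, so a difference in them was nearly built in. Leaving out 1 library gave 5 rises and 0 to 1 falls. Other pathway genes that rose numbered 8 with the filter at 5 FPKM. Those that fell numbered 0 with no filter (also at a pseudocount of 0.1), 6 after median-ratio scaling, 2 after quantile normalization, 2 with array weights, 4 with the replicate block, and 0 to 4 with 1 library left out. Over all genes, 655 of 7418 rose with the filter at 5 FPKM, and falls numbered 1276 after median-ratio scaling and 231 to 1465 with 1 library left out. Fewer genes are tested at 5 FPKM; the other causes were not tested. The replicate block changed no call of the 9 tested Wnt genes.

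Absolute depth is unknown, so the number of fragments behind values under 0.1 FPKM cannot be given, and no order is read among the lowest ligands.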
